A study of Mus musculus with 16 samples.

Results

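The genes described here are those of sterol synthesis and of the SREBP transcription factors that control it, measured in type 1 conventional dendritic cells (cDC1). A list of 33 genes was read: enzymes of the mevalonate pathway, enzymes that turn squalene into cholesterol, the SREBP regulators, proteins of sterol transport and esterification, and enzymes of fatty acid synthesis. The brightest probe set with a single gene symbol stood for each gene, and 31 of the 33 genes had one, out of 19938 genes on the array; Acat2 and Soat1 were not analysed here. All 31 had a mean intensity of at least 32, a level reached by 12083 of the 19938 genes (60.6%), so none was left out as dim.

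cDC1 are the dendritic cells that engulf dying cells and cross-present their antigens to CD8 T cells. The protein WDFY4, of the BEACH-domain family, is needed by them for this. The cells came from inguinal lymph nodes of C57BL/6 mice on day 6 after tumours of a kind that later regress were placed in the flank. RNA was hybridised to Affymetrix Mouse Gene arrays in 4 groups of 4 arrays. KO draining cells lacked Wdfy4 and came from the node on the tumour side, and Het draining cells came from the same side of mice that keep 1 intact copy. KO non-draining and Het non-draining cells came from the opposite flank of tumour-bearing mice of the same genotypes. Comparisons between the genotypes therefore set KO cells against cells that also carry 1 disrupted copy, and no wild-type mice and no tumour-free mice are among the groups. How the allele was made, and whether a group's arrays stand for separate or pooled mice, is not given in the sources used here, so the p-values measure a spread between arrays that may be partly technical.

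Cells make cholesterol from acetyl-CoA through mevalonate, farnesyl pyrophosphate and squalene, and side branches of the pathway feed protein prenylation. The pathway is switched by SREBP2, the product of Srebf2, a transcription factor made as a membrane protein of the endoplasmic reticulum. When sterols are scarce its escort SCAP carries it to the Golgi, where proteases free the part that enters the nucleus and turns on the enzymes of the pathway. When sterols are plentiful the INSIG proteins hold SCAP back, and Insig1 is itself a target of SREBP. Dendritic cells mature and leave tissues for lymph nodes with large changes in their membranes, and the sterol-sensing liver X receptors act in the opposite direction by promoting efflux.

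SREBP acts through a short element in promoters, together with the neighbouring CCAAT box that binds NF-Y. The promoters of Hmgcs1, Insig1, Cyp51 and Stard5 are therefore shown. The windows run from 250 bases before to 50 bases after the gene's start and are from RefSeq (build GRCm38.p6), which had a window for 25 of the 31 genes. The sterol regulatory element was searched as TCACNCCAC and the box as CCAAT, on both strands, and the motifs share no match. Capitals mark a match, and ATTGG is CCAAT read on the opposite strand. The Hmgcs1 window is on chr13:119690101-119690400 (+ strand), the Insig1 window on chr5:28071162-28071461 (+), the Cyp51 window on chr5:4104648-4104947 (-) and the Stard5 window on chr7:83631767-83632066 (+).
Hmgcs1: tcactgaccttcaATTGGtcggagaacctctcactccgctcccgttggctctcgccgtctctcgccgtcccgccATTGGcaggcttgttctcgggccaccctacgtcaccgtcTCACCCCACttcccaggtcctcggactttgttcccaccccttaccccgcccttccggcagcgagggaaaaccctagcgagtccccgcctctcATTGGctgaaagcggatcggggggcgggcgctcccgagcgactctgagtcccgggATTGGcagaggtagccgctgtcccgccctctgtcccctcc
Insig1: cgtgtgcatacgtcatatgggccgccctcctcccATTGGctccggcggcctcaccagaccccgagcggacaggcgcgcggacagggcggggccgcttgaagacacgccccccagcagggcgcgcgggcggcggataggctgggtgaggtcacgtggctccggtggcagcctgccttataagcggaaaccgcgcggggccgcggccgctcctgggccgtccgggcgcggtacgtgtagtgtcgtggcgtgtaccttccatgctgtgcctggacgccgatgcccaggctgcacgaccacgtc
Cyp51: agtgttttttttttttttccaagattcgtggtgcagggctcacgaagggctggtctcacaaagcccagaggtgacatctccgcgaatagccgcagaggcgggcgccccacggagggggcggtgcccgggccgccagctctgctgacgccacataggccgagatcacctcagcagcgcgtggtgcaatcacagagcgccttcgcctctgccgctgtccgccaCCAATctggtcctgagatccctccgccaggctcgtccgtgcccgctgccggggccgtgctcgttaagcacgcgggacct
Stard5: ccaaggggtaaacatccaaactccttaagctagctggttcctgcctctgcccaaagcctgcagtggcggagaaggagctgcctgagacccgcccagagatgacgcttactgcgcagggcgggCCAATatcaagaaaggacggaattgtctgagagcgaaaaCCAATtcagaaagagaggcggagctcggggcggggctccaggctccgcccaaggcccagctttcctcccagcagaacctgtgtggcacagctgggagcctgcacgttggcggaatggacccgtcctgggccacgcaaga
TCACNCCAC was found in the window of Hmgcs1 alone among the 25, where it begins 137 bases before the start; 1.24% of all 32851 windows hold it. CCAAT was found in the windows of 22 of the 25 genes, including all 15 windows of cholesterol synthesis enzymes. Among all 9675 genes of mean intensity 32 or more that have a window, 41.5% hold it, and so do 37.4% of all windows. The 3 genes with a window but no CCAAT match were Scap, Acaca and Elovl6. Hmgcs1 was chosen for its element, and the windows of Insig1, Cyp51 and Stard5 were chosen after their values had been seen. A match describes letters in the window and says nothing of binding. The element was searched in 1 fixed form, so a window without a match is not shown to lack a sterol regulatory element.

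The arrays as a whole set the frame for these values. All 13 cDC1 markers were measured on every array, with Xcr1 between 1240 and 2495, Clec9a between 1031 and 1777 and Irf8 between 2703 and 4082. T cell markers were also present on all arrays (Cd3g between 155 and 889), and their summed intensity ran from 892 to 2842 over the arrays. Wdfy4 itself lay between 1786 and 2785 in KO draining cells, against 2463 to 3450 in Het draining cells, and between 1923 and 3165 in KO non-draining cells, against 2278 to 3332 in Het non-draining cells. These ranges overlap (exact two-sided permutation p = 0.0857 and p = 0.229), where the probes lie relative to the disrupted part is not given, and the genotypes here rest on the labels. In each of the 5 comparisons described below, limma called 0 of 19938 genes at a Benjamini-Hochberg adjusted p under 0.05; at an unadjusted p under 0.05 there were 675 (draining node) and 494 (non-draining node) between the genotypes, 421 (KO) and 655 (Het) between the nodes, and 463 for the interaction. In sorted cells measured in bulk, fewer cells of a type and less RNA per cell cannot be told apart.

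One array stood apart for the pathway and has to be known before the group values. On KO draining 2, 12 of the 18 measured cholesterol synthesis enzymes and 14 of all 31 genes had their lowest value of the 16 arrays, while this array held the lowest value for 25.4% of the 12083 brighter genes. The 18 enzymes lay a median of 0.76 log2 units below the other 3 KO draining arrays, with 16 of 18 below, against a median of -0.12 over the brighter genes, 61.8% of which were below. Fdft1, which makes squalene, had an intensity of 482 there, against 1490.2, 1127 and 1299.5 on KO draining 1, 3 and 4. Sqle, the squalene epoxidase, had 67.4, against 183, 165 and 176, and Fdps, which makes farnesyl pyrophosphate, had 176, against 321, 525 and 504. Hmgcs1, which makes HMG-CoA and whose window carries the sterol element, had 67.5, against 135, 166 and 173. The gap was not shared by all of the genes: it was +0.10 for Insig1, +0.14 for Cyp51 and +0.43 for Npc1, the lysosomal cholesterol exporter. Over the 5 fatty acid synthesis genes the median was +0.01, but 2 of the 5 were below, Scd1 at -0.82 and Acaca at -0.57. Insig2, unlike Insig1, was at -0.77.

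Markers of migratory dendritic cells moved with the enzymes on this array. All 12 lay below the other 3 KO draining arrays, by a median of 0.91 log2 units, and their summed intensity was 17531, against 25477 to 31375 on the other 3. Fscn1, which bundles actin in mature dendritic cells, had 3065 there, against 6739, 4354 and 5681, and Ccr7, the receptor that guides them into the node, had 3527, against 5466, 4735 and 5059. The 29 cell cycle genes lay 0.21 above the other 3 arrays as a median. Median gaps below 0 were also found for the macrophage and monocyte markers (-0.38, 7 of 10 below), the B cell markers (-0.32, 9 of 11), the cDC2 markers (-0.28, 5 of 7) and the cDC1 markers themselves (-0.25, 10 of 13), while the 10 T cell markers, at -0.12, lay where the brighter genes did. The array's 75th percentile of intensity was 120.9, below the 124.5 to 137.0 of the other 15 arrays. In an alternative limma fit with array weights its weight was the lowest, at 0.26, while the main fit weighted all arrays equally. The part of any of these in the low enzyme values was not tested, and each group result below is given with and without this array.

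**Figure D1:**
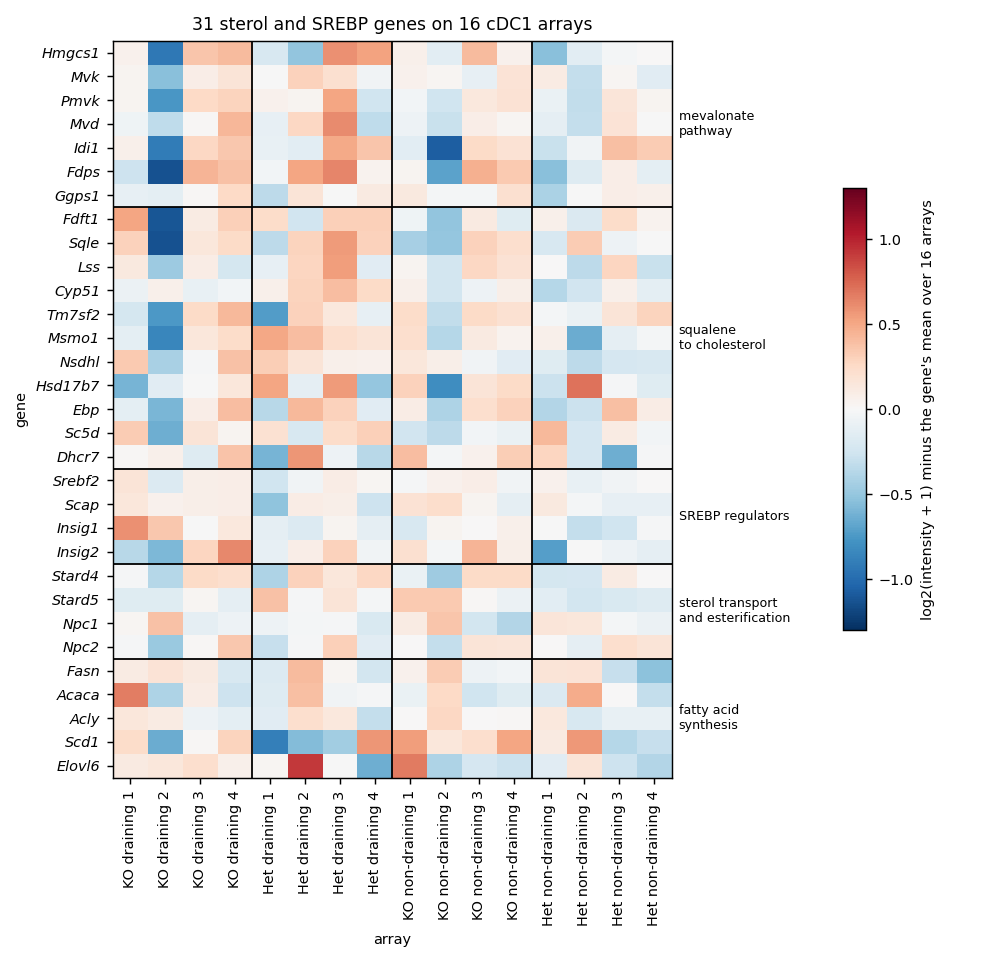
Values of the 31 genes (rows, grouped by role) on the 16 arrays (columns, by group), as log2(intensity + 1) minus the gene's mean over the arrays; blue is below and red above the gene's own mean. Of the 18 enzymes, 16 were lower on KO draining 2 than the mean of the other 3 arrays of its group, and 17 were lower on KO non-draining 2. The brighter genes had median gaps of -0.12 and -0.02 on these arrays.

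**Figure D2:**
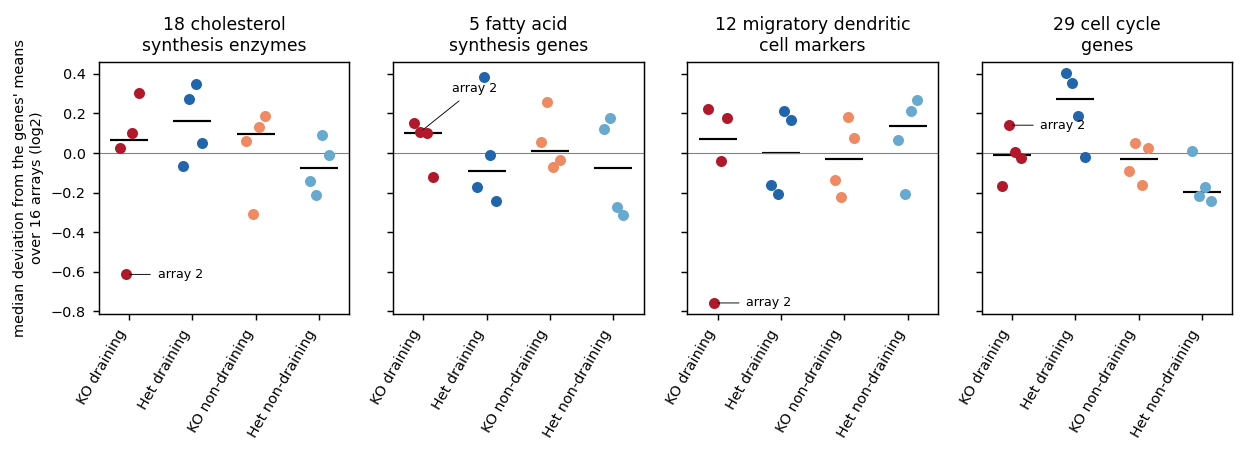
Each point is 1 array: the median deviation of a gene list from the genes' own means over the 16 arrays, in log2 units, with a line at the median of the 4 arrays of a group. KO draining 2 is at -0.61 for the enzymes and at -0.76 for the migratory dendritic cell markers, while it lies at 0.11 for fatty acid synthesis and at 0.14 for the cell cycle.

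The first comparison asks whether loss of Wdfy4 alters the pathway in cDC1 of the tumour-draining node. Over the 18 cholesterol synthesis enzymes the median difference was -0.17 log2 units (KO over Het), with 15 of 18 lower and 52.5% of the brighter genes lower. Without KO draining 2 the median was 0.05, with 12 of 18 higher and 57.5% of the brighter genes higher. The sign of the pathway's difference therefore changed with 1 array of 16. The summed intensity of the enzymes was 2534 to 5191 in KO draining cells, or 4663 to 5191 without array 2, against 4525 to 5361 in Het draining cells. Of the 31 genes, 3 had an unadjusted limma p under 0.05 (Insig1 with a positive difference, Cyp51 and Msmo1 with negative ones), against 3.39% of all genes, and 0 passed the adjusted test (smallest adjusted p = 1.00).

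Other gene lists differed between the genotypes in this node as well. Of the 21 immediate early genes, which respond to handling and tissue digestion, 20 were higher in KO, by a median of 0.32 log2 units, with a summed intensity of 27873 to 32712 in KO and 22964 to 29334 in Het draining cells. Cell cycle genes were lower in KO in 26 of 29, by a median of 0.19, and T cell markers higher in 9 of 10, by a median of 0.28. Migratory dendritic cell markers had a median of -0.10, and of 0.12 without KO draining 2. Their part in the differences below was not tested.

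**Figure D3:**
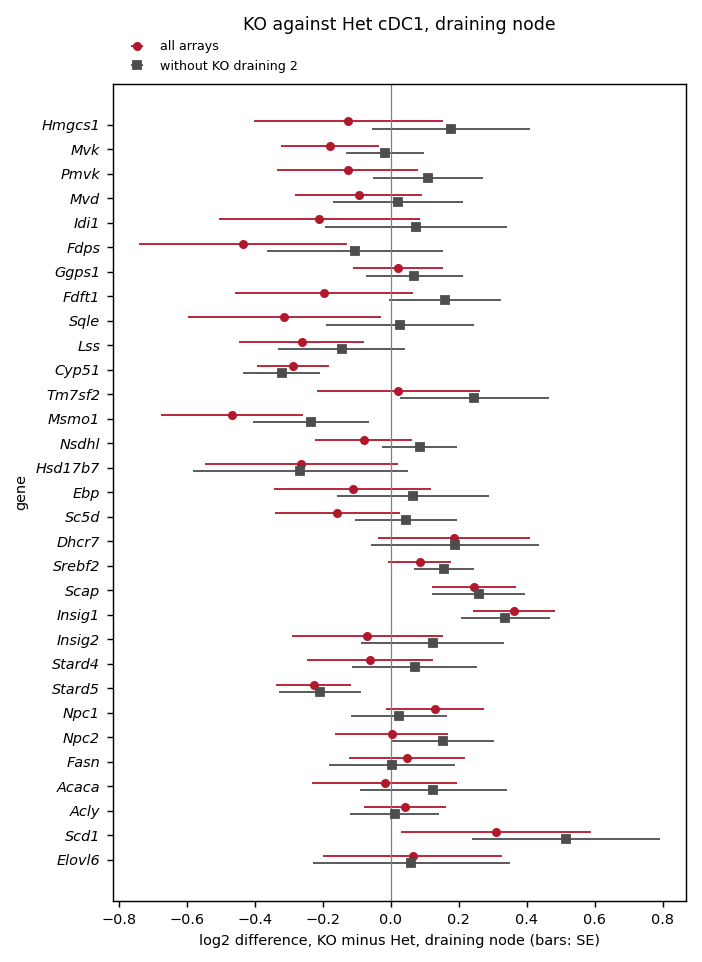
Log2 difference of KO minus Het in the draining node for each of the 31 genes with its standard error, over all arrays (red circles) and without KO draining 2 (grey squares). Of the 18 enzymes, 3 lie above 0 over all arrays and 12 without the array, while Cyp51 stays at -0.29 and -0.32 and Insig1 at 0.36 and 0.34.

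Among the SREBP regulators, Insig1, the sterol-responsive retention protein, had intensities of 257, 217, 169 and 187 on the 4 KO draining arrays, against 157, 151, 174 and 157 on the 4 Het draining arrays. KO draining 3 lay below Het draining 3, so the groups overlapped, and the other 3 KO arrays lay above all Het arrays. The mean was 208 ± 38.5 in KO and 160 ± 10.3 in Het draining cells (SD, n = 4 each), a log2 difference of 0.36 ± 0.12 (limma SE; unadjusted p = 0.00839, adjusted p = 1.00; exact permutation p = 0.0571). Leaving out KO draining 2 gave 0.34 ± 0.13, and leaving out KO draining 1, the highest array, gave 0.25. Arrays 1 and 2 alone gave 0.62, and arrays 3 and 4 alone gave 0.11. Insig1 thus did not share the low values of the enzymes on KO draining 2, where it was the second highest of the 16 arrays.

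Scap, which escorts SREBP to the Golgi, had 389, 362, 369 and 372 in KO draining cells, against 244, 374, 369.7 and 291 in Het draining cells. The difference of 0.24 ± 0.12 rested on Het draining 1 and 4, and Het draining 2 and 3 lay within the KO values (exact permutation p = 0.257). Srebf2 had 672, 529.95, 630.2 and 638 in KO draining cells, against 502, 580.1, 639 and 609 in Het draining cells. Its difference was 0.08 ± 0.09, or 0.16 ± 0.09 without KO draining 2. Insig2, the isoform that is less responsive to sterols, had 148, 127, 232 and 295 in KO draining cells, against 178, 203, 235 and 185 in Het draining cells, and the KO arrays spread on both sides of the Het arrays.

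Among the enzymes, Cyp51, the lanosterol demethylase, had 90.0, 99.6, 88.8 and 92.7 in KO draining cells, against 99.5, 116, 126 and 113 in Het draining cells. Only KO draining 2 reached the lowest Het array, and the other 3 KO arrays lay below all Het arrays. The means were 92.8 ± 4.86 in KO and 114 ± 10.8 in Het draining cells (SD, n = 4 each), and the difference was -0.29 ± 0.11, or -0.32 ± 0.11 without KO draining 2 (unadjusted p = 0.0152 and 0.0122; adjusted p = 1.00 in both; exact permutation p = 0.0571 in both). Cyp51 therefore differed from most enzymes, since its difference was as large without the array.

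Msmo1, the methylsterol monooxygenase of the following steps, had 459, 279, 558 and 595 in KO draining cells, against 710.5, 666, 585 and 564 in Het draining cells. KO draining 4 lay within the Het range, and KO draining 2 was far below the rest. The difference was -0.47 ± 0.21 (unadjusted p = 0.0395, adjusted p = 1.00, exact permutation p = 0.114), and it was -0.24 ± 0.17 without KO draining 2. Fdps had 321, 176, 525 and 504 in KO draining cells, against 377, 554, 602 and 399 in Het draining cells, and its difference of -0.43 ± 0.31 was -0.11 ± 0.26 without the array. Mvk, the mevalonate kinase, had 107, 71.0, 110.4 and 117 in KO draining cells, against 104, 129, 120.4 and 101 in Het draining cells, and its difference of -0.18 ± 0.14 was -0.02 ± 0.11 without the array. In Fdps, KO draining 1 and 2 lay below all Het arrays, and in Mvk only KO draining 2 did.

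Of the other 14 enzymes, Dhcr7, Tm7sf2 and Ggps1 had positive differences of 0.19, 0.02 and 0.02 and the rest negative ones, the lowest being -0.31 ± 0.28 for Sqle. Without KO draining 2 the differences of these 14 ran from -0.27 for Hsd17b7 to 0.25 for Tm7sf2. None of the 14 had an unadjusted p under 0.05 with or without the array.

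Stard5, a cytosolic carrier of sterols, had 92.8, 93.0, 105.5 and 95.6 in KO draining cells, against 135, 102, 117 and 102 in Het draining cells, a difference of -0.23 ± 0.11 (exact permutation p = 0.0857). Npc1 had 226, 288, 204 and 213 in KO draining cells, against 211, 218, 219.6 and 194 in Het draining cells, and KO draining 2 carried its difference of 0.13 ± 0.14, which was 0.02 ± 0.14 without it. Scd1, the desaturase that makes oleate, had 101, 54.6, 86.5 and 105 in KO draining cells, against 45.7, 57.8, 62.5 and 128 in Het draining cells. Its difference was 0.31 ± 0.28, and 0.52 ± 0.28 without KO draining 2, with Het draining 4 the highest of all 8 arrays. Fasn, Acaca, Acly and Elovl6, which build fatty acids from citrate and acetyl-CoA and lengthen them, had differences between -0.02 and 0.06.

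**Figure D4:**
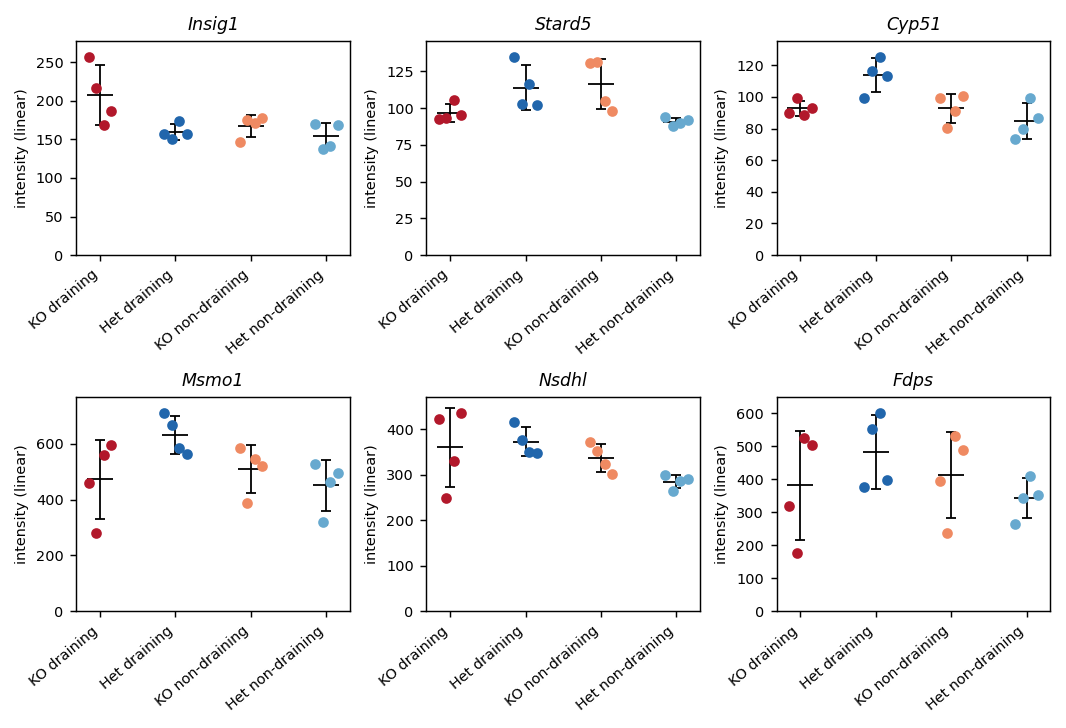
Intensity (linear scale, starting at 0) of 6 genes on the 4 arrays of each group, with the group mean and SD as bars. Insig1 averaged 208 in KO draining cells, against 160 in Het draining cells; Stard5 averaged 116 in KO non-draining cells, against 90.9 in Het non-draining cells; the lowest point of Msmo1, Nsdhl and Fdps in KO draining cells is array 2.

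In the non-draining node, where the same question is put without a tumour in the drained flank, the enzymes had a median difference of 0.11 (KO over Het), with 13 of 18 higher and 52.4% of the brighter genes higher. Over all 31 genes the median was 0.11 with 23 higher, and over all 19938 genes it was 0.00. KO non-draining 2 was the low array of its group: 17 of 18 enzymes lay below the other 3 arrays, by a median of 0.38. The brighter genes had a median gap of -0.02 on this array. The enzymes' median difference without the array was 0.17. Without Het non-draining 1 it was 0.03. The summed intensity of the enzymes was 3276 to 4679 in KO and 3641 to 4543 in Het non-draining cells, so the genotypes overlapped. Of the 31 genes, 1 had an unadjusted p under 0.05 (2.48% of all genes did), and 0 passed the adjusted test (smallest adjusted p = 1.00).

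That gene was Stard5, with 131, 131, 105 and 98.3 in KO non-draining cells, against 93.9, 87.7, 89.8 and 92.0 in Het non-draining cells. All 4 KO arrays lay above all 4 Het arrays. The means were 116 ± 17.3 in KO and 90.9 ± 2.69 in Het cells (SD, n = 4 each), a difference of 0.34 ± 0.11 (unadjusted p = 0.00680, adjusted p = 1.00; the exact permutation p of 0.0286 is the smallest that 4 against 4 arrays can give). KO arrays 1 and 2 were higher than KO arrays 3 and 4, and the difference was 0.53 among arrays 1 and 2 and 0.16 among arrays 3 and 4.

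Nsdhl, the sterol dehydrogenase that acts with Msmo1, had 371, 352, 323 and 301 in KO non-draining cells, against 299, 264, 287 and 290.2 in Het non-draining cells. Its groups did not overlap either, with a difference of 0.24 ± 0.14 (unadjusted p = 0.114, exact permutation p = 0.0286). Both Stard5 and Nsdhl were higher in KO, and 1.2% of all genes were higher in KO with groups that did not overlap. Insig2 had 221, 187, 259.6 and 201 in KO non-draining cells, against 116, 191, 182 and 176 in Het non-draining cells, a difference of 0.40 ± 0.22, or 0.23 without Het non-draining 1. Dhcr7, a reductase of the last step to cholesterol, had 103, 76.2, 80.9 and 96.9 in KO non-draining cells, against 94.4, 66.8, 49.7 and 76.8 in Het non-draining cells, and the groups overlapped (0.33 ± 0.22, exact permutation p = 0.171; 0.17 without Het non-draining 3).

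Insig1 had 147, 175, 171 and 178 in KO non-draining cells, against 169.8, 138, 142 and 169 in Het non-draining cells. Its difference of 0.12 ± 0.12 was smaller than in the draining node, and the difference between the nodes was 0.24 ± 0.17 (limma, unadjusted p = 0.176), which does not separate them. Scap and Srebf2 had differences of 0.11 ± 0.12 and 0.04 ± 0.09. Markers of other cells moved with genotype in this node: all 10 T cell markers were lower in KO, by a median of 0.33 log2 units, and 10 of 11 B cell markers were higher, by a median of 0.46. The T cell markers summed to 892 to 2478 in KO and 1345 to 2551 in Het non-draining cells, and the B cell markers to 870.2 to 1274 in KO and 689 to 1148 in Het non-draining cells. All 12 migratory dendritic cell markers were lower, by a median of 0.14, while 11 of 13 cDC1 markers were higher, by a median of 0.20, and 19 of 21 immediate early genes, by a median of 0.25. Whether these bear on Stard5 or Nsdhl was not tested.

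In Het cells, set between the nodes, 17 of 18 enzymes were higher in the draining node, by a median of 0.16 log2 units, while 48.3% of the brighter genes were higher and the median over all genes was 0.01. The summed intensity of the enzymes was 4525 to 5361 in Het draining cells, against 3641 to 4543 in Het non-draining cells, with the lowest draining array just below the highest non-draining one. Het draining 3 had the highest of 16 values for 8 of 18 enzymes and for 5.53% of the brighter genes. Without this array the enzymes' median difference was 0.05, and without Het draining 1 it was 0.24. Of the 31 genes, 4 had an unadjusted p under 0.05, all higher in the draining node, against 3.29% of all genes, and 0 passed the adjusted test (smallest adjusted p = 1.00).

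These 4 were Cyp51, Msmo1, Nsdhl and Stard5. Cyp51 had 99.5, 116, 126 and 113 in Het draining cells, against 73.4, 79.7, 99.6 and 86.7 in Het non-draining cells, and the groups overlapped only between the lowest draining and the highest non-draining array. Its difference of 0.42 ± 0.11 had the smallest p of any of the 31 genes in any comparison (unadjusted p = 0.00103, adjusted p = 1.00, exact permutation p = 0.0571). Same-numbered arrays had correlated deviations in this contrast, but draining arrays 1 and 3 correlated slightly more with an array of another number. Whether the numbers pair the samples is therefore uncertain. Within the 4 pairs formed by number, Cyp51, Fdps, Msmo1, Nsdhl, Insig2 and Stard5 were higher in the draining node in all 4. These are 6 of the 31 genes, against 7.45% of all genes, and the enzymes' median per array was also higher in all 4 pairs.

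Msmo1 had 710.5, 666, 585 and 564 in Het draining cells, against 526, 320.3, 464 and 494 in Het non-draining cells. Nsdhl had 417, 376, 349.6 and 348 in Het draining cells, against 299, 264, 287 and 290.2 in Het non-draining cells. In both genes every draining array lay above every non-draining one, with differences of 0.50 ± 0.21 and 0.38 ± 0.14 (unadjusted p = 0.0286 and 0.0158, adjusted p = 1.00; exact permutation p = 0.0286, the smallest possible). Stard5, with 102 to 135 in Het draining cells, against 87.7 to 93.9 in Het non-draining cells, was also without overlap (0.32 ± 0.11). These 3 genes are to be read against 1.4% of all genes that were higher in the draining node with groups that did not overlap.

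The remaining enzymes had differences between -0.19 for Tm7sf2 and 0.48 ± 0.31 for Fdps, which had 377 to 602 in Het draining cells, against 266 to 411 in Het non-draining cells. Of the 13 genes outside the synthesis steps, 8 were higher and 5 lower in Het draining cells, and among the higher ones Stard5 is given above, Insig2 had 0.28 ± 0.22, Elovl6 0.23 ± 0.26, Stard4, another carrier of sterols, 0.17 ± 0.18 and Fasn 0.13 ± 0.17. Smaller or negative differences were found for the others that regulate or move sterols: Insig1 had 0.05 ± 0.12, Srebf2 -0.03 ± 0.09, Scap -0.12 ± 0.12, Npc1 -0.13 ± 0.14 and Npc2, the partner of Npc1 that binds cholesterol in the lysosome, -0.10 ± 0.17. Scd1 had the lowest difference of the 31, at -0.33 ± 0.28.

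The cell cycle genes moved with the enzymes here: all 29 were higher in Het draining cells, by a median of 0.37 log2 units. Of them, 16 had an unadjusted p under 0.05, against 3.29% of all genes. Pairs of these genes had a median correlation of 0.35 in their deviations from the group means, so the 16 are not independent. Their summed intensity was 5512 to 7712 in Het draining cells, against 4776 to 6023 in Het non-draining cells. T cell markers were lower in 9 of 10, by a median of 0.40, and migratory dendritic cell markers in 9 of 12, by a median of 0.07. The part of cell division or of other cells in the enzymes' difference was not tested.

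In KO cells the same contrast gave a median of -0.08 for the 18 enzymes, with 6 higher and 12 lower, and without KO draining 2 it gave 0.12, with 13 higher and 5 lower. Of the brighter genes, 44% were higher with that array and 53.9% without it. Of the 31 genes, 2 had an unadjusted p under 0.05 (2.11% of all genes), with 0 past the adjusted test (smallest adjusted p = 1.00). Insig1 had 257, 217, 169 and 187 in KO draining cells, against 147, 175, 171 and 178 in KO non-draining cells, with overlap and a difference of 0.29 ± 0.12 (exact permutation p = 0.114). Without KO draining 1 it was 0.18, and arrays 1 and 2 alone gave 0.56, against 0.03 from arrays 3 and 4. Stard5 had 92.8 to 105.5 in KO draining cells, against 98.3 to 131 in KO non-draining cells, a difference of -0.25 ± 0.11 (exact permutation p = 0.0857), with -0.49 from arrays 1 and 2 alone and -0.02 from arrays 3 and 4.

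Leaving out KO draining 2 also brought forward enzymes that had not stood out with it. Fdft1 then had 1127 to 1490.2 in KO draining cells, against 733 to 1134 in KO non-draining cells (0.46 ± 0.16). Sc5d, the sterol desaturase, had 241, 216 and 196 in KO draining cells, against 162, 152, 187 and 179.9 in KO non-draining cells, which did not overlap (0.35 ± 0.15; exact permutation p = 0.0286, the smallest that 3 against 4 arrays can give; adjusted p = 1.00). Groups higher in the draining node without overlap made up 1.73% of all genes on that setting. Cyp51 differed from these: it had 88.8 to 99.6 in KO draining cells, against 80.4 to 100.5 in KO non-draining cells, a difference of 0.00 ± 0.11. Scd1 had -0.38 ± 0.28, or -0.17 ± 0.28 without KO draining 2, and Lss, the lanosterol synthase, -0.19 ± 0.18, or -0.07 ± 0.19.

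**Figure D5:**
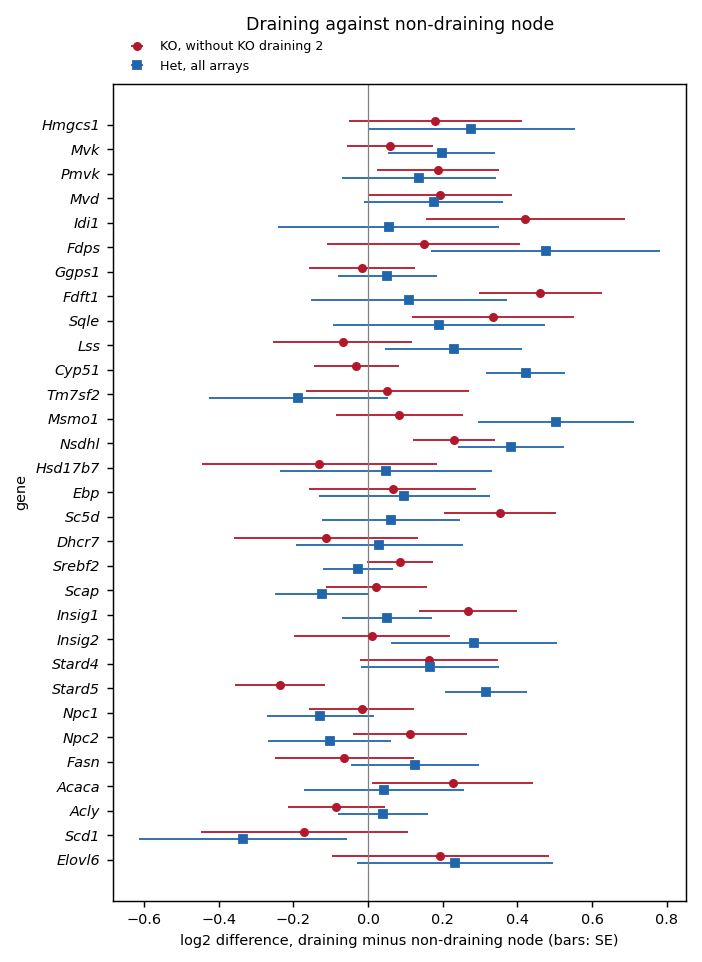
Log2 difference of draining minus non-draining node for the 31 genes with its standard error, in KO cells without KO draining 2 (red circles) and in Het cells (blue squares). Stard5 lies on opposite sides of 0 in the genotypes (-0.24 in KO and 0.32 in Het), and Cyp51 is at -0.03 in KO and 0.42 in Het.

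The interaction, the KO minus Het difference in the draining node minus that in the non-draining node, tests directly whether the genotypes differ in their node difference. Its median was -0.19 over the 18 enzymes, with 15 of 18 below 0 and 53.7% of the brighter genes below 0. Without KO draining 2 it was -0.08, with 11 of 18 and 46.2% of the brighter genes below 0. Within arrays 1 and 2 it was -0.32, with 15 of 18 below 0, and within arrays 3 and 4 it was -0.07, with 10 of 18. The cell cycle genes also lay below 0, with 25 of 29 within arrays 1 and 2 (median -0.46) and 26 of 29 within arrays 3 and 4 (median -0.25). Their part in the enzymes' interaction was not tested. An unadjusted p under 0.05 was reached by 3 of the 31 genes, all below 0, against 2.32% of all genes, and 0 passed the adjusted test (smallest adjusted p = 1.00).

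Stard5 had -0.57 ± 0.16 (unadjusted p = 0.00211) and -0.55 ± 0.16 without KO draining 2, Cyp51 had -0.42 ± 0.15 (unadjusted p = 0.0127) and -0.45 ± 0.15, and Msmo1 had -0.65 ± 0.30 (unadjusted p = 0.0421) and -0.42 ± 0.23; the adjusted p was 1.00 for each. In Stard5 and Cyp51 the value was as large without the array, and in Msmo1 it was smaller. Stard5 had -0.86 on arrays 1 and 2 alone and -0.27 on arrays 3 and 4 alone. For Stard5, KO draining and Het non-draining cells had the lower values and Het draining and KO non-draining cells the higher ones. Lss had -0.42 ± 0.26, with 29.0 to 44.5 in KO draining cells, against 36.6 to 59.9 in Het draining cells, and with 34.4 to 49.3 in KO non-draining cells, against 31.9 to 49.6 in Het non-draining cells.

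The enzymes varied together from array to array within the groups. The median correlation between pairs of enzymes of their deviations from the group means was 0.48 over 153 pairs and 16 arrays, and 0.31 without KO draining 2, while pairs of brighter genes had medians of 0.02 and 0.01. Among the 7 mevalonate pathway genes it was 0.61, and 0.47 without the array. The 4 SREBP regulators were less tied, at 0.18 and 0.04, and the 12 migratory dendritic cell markers more so, at 0.75 and 0.61. The 5 fatty acid synthesis genes were at 0.31 and 0.33, and the 29 cell cycle genes at 0.35 and 0.33. Without the array these lists were thus tied about as much as the enzymes. The points share their arrays and the arrays' intensity distribution, so these values describe the libraries.

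Genes of the same system outside the list were read from lists of their own. Of 19 measured other sterol and SREBP genes, 1 had an unadjusted p under 0.05 between the genotypes in the draining node, and that was Me1, the malic enzyme that supplies NADPH for lipid synthesis (-0.53 ± 0.21), against 3.39% of all genes. In the non-draining node, with 2.48% of all genes, there were 2, Tmem97, a sterol-regulated membrane protein, at -0.45 ± 0.16 and Acss2, which makes acetyl-CoA from acetate, at 0.45 ± 0.18. In Het cells between the nodes, with 3.29% of all genes, there were 2, the desaturase Scd2 at 0.38 ± 0.16 and Erlin2, a partner of the INSIG-dependent degradation machinery, at 0.51 ± 0.22. In KO cells between the nodes there were 0 (2.11% of all genes), and the interaction had 1, Acss2 (-0.64 ± 0.25; 2.32% of all genes). With 19 genes these are counts of 0 to 2, and none passed the adjusted test.

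The liver X receptor and sterol efflux genes lay on the other side in Het cells. Of 11 measured, 10 were lower in the draining than in the non-draining node, by a median of 0.19 log2 units, against 51.7% of the brighter genes. Abca1, which exports cholesterol, had -0.23 ± 0.08 and Mylip, the ligase that degrades lipoprotein receptors, -0.34 ± 0.11 (unadjusted p = 0.0120 and 0.00872, adjusted p = 1.00). Between the genotypes in the draining node the list had a median of 0.06, with 6 of 11 and 47.5% of the brighter genes higher in KO. Mylip had 0.45 ± 0.11, and 0.45 without KO draining 2 (unadjusted p = 0.000966, adjusted p = 1.00), the smallest p of this list. In the non-draining node 9 of 11 were lower in KO, by a median of 0.13, against 47.6% of the brighter genes. The 9 included the receptor Nr1h3 (-0.41 ± 0.16) and the cholesterol ester hydrolase Nceh1 (-0.51 ± 0.18). In KO cells between the nodes the median was 0.02, with 6 of 11 and 44% of the brighter genes higher. The interaction had a median of 0.17, with 8 of 11 and 46.3% of the brighter genes above 0. Of the 11, 4 had an unadjusted p under 0.05, against 2.32% of all genes. They were Mylip (0.49 ± 0.16), Nceh1 (0.57 ± 0.25) and Abca1 (0.25 ± 0.12) above 0 and Lipa, the lysosomal lipase, below it (-0.48 ± 0.21, adjusted p = 1.00 for each). Without KO draining 2 there were 2 of 11, against 2.79% of all genes on that setting, with a median of 0.23.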

How the data were processed

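RNA of 16 samples was hybridised to 1 array each. Linear intensity values (3.327 to 16300.089) were deposited for 35556 probe sets after the authors' RMA normalization, as the submitters' processing notes state; which software ran it is not given. RMA gives all arrays nearly 1 intensity distribution, so it hides a change common to most genes, and it compresses dim genes. Of the probe sets, 21789 had 1 gene symbol, 1621 several and 12146 none, and a gene's brightest single-symbol probe set (mean over all arrays) stood for it. Of the 31 genes described, 3 had more than 1 such probe set. Precision is limited by the number of arrays, which have no depth; medians per array were 38.6 to 40.8, and 0 pairs of arrays held identical values.

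Values were tested two-sided as log2(intensity + 1) with limma 3.58.1 in R 4.3.3, in 1 fit of 4 groups (12 residual degrees of freedom), with Benjamini-Hochberg adjustment over 19938 genes and a threshold of 0.05. Fold differences understate those of low genes. Errors after ± are limma standard errors for differences and SDs for means, and single genes were also tested by exact permutation of 4 against 4 arrays. On data simulated for the genotype comparison in the draining node, 90% of 100 genes changed by 1 log2 unit and 40% of 100 changed by 0.5 passed the adjusted threshold. The simulated noise was normal and independent between genes and arrays, with no outlying array, so these shares may not hold for the measured arrays. Members, lists and the genes named were chosen with earlier results of these data known. Single-array values are given, though not in every comparison, for the SREBP regulators and the up to 4 genes of smallest p in a comparison. They are also given for the up to 2 of smallest p in a role group. Lss was given by ranges and Fasn by differences instead. Fdft1, Sqle, Hmgcs1, Fscn1, Ccr7 and Sc5d were added after their values had been seen. Same-numbered arrays had correlated deviations for every number (0.24, 0.26, 0.35 and 0.28) for draining against non-draining in Het. Draining arrays 1 and 3 correlated slightly more with another number (0.241 against 0.239, and 0.38 against 0.35). The numbers were tentatively taken to pair those samples. In the other comparisons at least 1 pair was at or below 0.02, though numbers 2 and 4 had 0.49 and 0.54 between the nodes in KO. Scale, filter, probe set rule, normalization, samples fitted, replicate block, array set, variance model, array weights and each array left out were tried as alternatives.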

Additional observations from a re-analysis of the deposited data

Results flagged for a closer look

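Over 152 sets of 4 values, 7 had 1 array that stood far from the other 3, measured by Dixon's ratio of the gap to the range. Chance alone gives about 1 in 20 sets, so 7 of 152 is near the number that chance would give. On the log2 scale, Sqle was at 6.10 on KO draining 2, against 7.37 to 7.53 on the other arrays of that group. Fdft1 was at 9.78 on Het draining 2, against 10.27 to 10.34.

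KO non-draining 2 accounted for 4 of the 7. Tm7sf2, a sterol reductase, was at 5.50 there, against 6.03 to 6.08, and Hsd17b7, which acts on sterol ketones, at 5.34, against 6.31 to 6.44. Acly, which makes acetyl-CoA from citrate, was high, at 8.65, against 8.39 on each of the other 3. The median deviation of all 31 genes was -0.24 on that array, against 0.05 to 0.09. This median takes in the genes just named, so it is not separate from them. Insig2 was at 6.87 on Het non-draining 1, against 7.47 to 7.58, and its KO over Het difference in the non-draining node was 0.40 with this array and 0.23 without it. On KO non-draining 2 the migratory dendritic cell markers had a median deviation of -0.22 and the T cell markers of -0.70; their part in the low enzyme values was not tested.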

How the results depend on the processing

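Of 1008 values recomputed under alternatives, all but 4 kept their direction and their side of the threshold or moved by less than the spread between replicates. For comparisons with KO draining cells that spread included KO draining 2, so a median could change sign and still count as moved by less. The adjusted test called 0 genes in each comparison, except within arrays 3 and 4, where it called 4 between the genotypes in the draining node, 2 between them in the non-draining node and 1 between the nodes in KO, none among the 31; the cause was not tested. The draining-node difference of Msmo1 (KO over Het) was 0.0037 within arrays 3 and 4, against -0.94 within arrays 1 and 2, which include KO draining 2. With the replicate block 0 genes were called in each comparison, and no other call moved: Cyp51 in Het cells between the nodes kept 0.42 with an adjusted p of 0.87. The smallest adjusted p of any of the 31 genes over the alternatives was 0.456 (Cyp51, draining against non-draining in Het, random block). Leaving out each array in turn moved the enzymes' median between -0.26 and 0.05 between genotypes on the draining side, 0.03 and 0.17 between them on the other side, -0.15 and 0.12 between the nodes in KO, 0.05 and 0.24 in Het, and -0.31 and -0.08 for the interaction. In the first and the third, among the single arrays left out, the sign turned only without KO draining 2. It also turned within arrays 3 and 4 (0.04 and 0.09) and, for the third, with array weights (0.04). The median over all 31 genes changed sign under 4 alternatives in the first comparison and under 3 in the third. With 4 arrays a group, differences near 0.5 log2 units were often missed in simulated data, so a failed test does not show that values did not differ.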
